A study of Mus musculus with 12 samples.

Results

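Phospholipid flippases were examined in mouse embryonic fibroblasts (MEFs), connective tissue cells grown from embryos, that differ in SIRT1, an NAD-dependent protein deacetylase. The group comprised 8 genes chosen by name as a family, with the genotype differences of these same arrays already known: the flippase genes Atp8a1, Atp8a2, Atp8b1, Atp8b2, Atp11a and Atp11b, and the CDC50 genes Tmem30a and Tmem30b. Because the genes were selected on results of these arrays, every genotype difference of a member is given as a description, and its p value is not printed. Together the 8 genes are read by 20 of the 41174 non-control probes of the array, or 8 of its 27962 gene names. Of the 20 probes, 12 were well above background on all arrays of at least 1 genotype and entered the fit, which held 25602 probes; these 12 read 7 genes, and neither probe of Atp8a2 was among them.

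A flippase is a P4-ATPase, a membrane pump that uses ATP to move phosphatidylserine, phosphatidylethanolamine or related lipids from the outer to the inner leaflet of a membrane. Most P4-ATPases leave the endoplasmic reticulum and work only in a complex with a CDC50 protein, and TMEM30A is the partner that most of them use in most tissues. The uneven distribution of lipids that results keeps phosphatidylserine hidden on the inner face of the plasma membrane, bends membranes of the trans-Golgi network and endosomes, and is undone by scramblases when a dying cell exposes phosphatidylserine to phagocytes.

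Total RNA of 3 SIRT1 genotypes was hybridised in 1 colour (Cy3) to 12 Agilent oligonucleotide arrays, 4 for each: wild-type cells (WT), heterozygotes (Het) and the knockout (KO). All cells carry a female label and were cultured alike, without treatment, in DMEM with 25 mM glucose, 4 mM glutamine and 10% serum, and labelling started from 500 ng of RNA. The kind of SIRT1 allele, the strain and the age of the embryos are not stated in the labels, nor whether arrays of a genotype came from separate embryos or cultures, so the spread between arrays may be technical. The labels number the WT arrays 1, 2, 3 and 5, and the arrays of both other genotypes 2, 3, 4 and 5. A level is the log2 signal relative to the 75th percentile of its array, so 0 is that percentile, and a difference is the difference of group means in log2 units with its standard error (SE) from the limma fit. A probe was called when its adjusted p in that fit, over all 25602 probes, was under 0.05. For a member, a call, or its loss in another setting, only says on which side of this threshold the probe fell. It is not a test, as the members were chosen with these comparisons known. Levels of different probes are not comparable with each other.

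The 12 arrays lay on 4 slides. A share of 59.7 to 64.8% of probes was well above background on slides 1 to 3 and 76.9 to 77.8% on slide 4. The array labelled WT replicate 3 went against its female label, with the X-inactivation RNA Xist at −2.94 against 1.66 to 3.42 on the other 11 arrays and the Y-linked genes Ddx3y and Eif2s3y at 1.04 and 0.92. The other arrays numbered 3 came next at these probes of the Y-linked genes, Het replicate 3 at −4.35 and −3.92 and KO replicate 3 at −5.28 and −5.02, with the remaining 9 arrays at −10.16 to −7.04 and −10.06 to −6.08. A second Ddx3y probe, A_52_P1083441, well above background on 2 arrays, did not share this order. It stood at −3.30 in WT replicate 3, −4.80 in WT replicate 2, −7.20 in Het replicate 3 and −8.56 in KO replicate 3. KO replicates 4 and 5 correlated at 0.998 over the probes, the closest pair of any genotype. A Sirt1 probe was lower in KO than in WT cells by a difference of −0.83 (SE 0.17, limma adjusted p = 0.0361), while a second Sirt1 probe differed by 0.02. In Het minus WT these probes differed by 0.01 (SE 0.17) and 0.08 (SE 0.24), neither called. All 10 fibroblast markers examined were well above background on all 12 arrays; of these, Thy1 was lower in KO than in WT cells (−3.47, SE 0.30, limma adjusted p = 0.000966), and both Thy1 (−2.16, SE 0.30, limma adjusted p = 0.0105) and Dcn (−3.21, SE 0.53, limma adjusted p = 0.0191) were lower in KO than in Het cells. No other fibroblast marker was called, and the part of these differences in the member values was not tested.

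The probes that carry the differences described here are 60-base oligonucleotides, and the first 30 bases of those for Atp8a1 and Tmem30b are shown 5′ to 3′, to identify what each array spot reads. On build mm7 all of them lie on the minus strand, the Atp8a1 probes at chr5:66974961-66975020 (A_52_P385896), chr5:66976964-66977023 (A_52_P534844) and chr5:67004056-67007121 (A_51_P119636, whose 60 bases span 3066 bases of genome), and the Tmem30b probes at chr12:71496040-71496099 (A_52_P547612) and chr12:71497561-71497620 (A_52_P414368). Exons and introns are not given, because a gene annotation of mm7 was not used here.
Atp8a1 A_52_P385896: gcgtcctttttaatcagtgtgtaactatta
Atp8a1 A_52_P534844: tgcttaagcctgaaaattatttcacagttc
Atp8a1 A_51_P119636: ttgtttatacttttgtagtgataactgtgt
Tmem30b A_52_P547612: tatggcggtcaaatgctgagttacagtgat
Tmem30b A_52_P414368: ctcatcattcttagcaacatctcttggatg

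Among the catalytic subunits, Atp8a1 showed the widest separation of the 3 genotypes. ATP8A1 transports phosphatidylserine and phosphatidylethanolamine and acts at endosomes and the plasma membrane. At probe A_52_P385896 its level was −3.79, −2.90, −3.13 and −2.85 in WT replicates 1, 2, 3 and 5. In Het cells it was −4.48, −4.87, −4.85 and −4.58, and in KO cells −1.58, −2.22, −1.85 and −1.98 (replicates 2, 3, 4 and 5 in both). Every KO array thus lay above every WT array, and every WT array above every Het array. The means were −3.17 ± 0.43 on WT arrays, −4.69 ± 0.20 on Het arrays and −1.91 ± 0.26 on KO arrays (SD, n = 4 arrays each). KO exceeded WT by 1.26 (SE 0.22, 2.39-fold), Het was below WT by −1.53 (SE 0.22, 2.89-fold), and KO exceeded Het by 2.79 (SE 0.22, 6.90-fold). The probe was called in all 3 comparisons. Bulk RNA cannot tell apart fewer cells of a type and less RNA per cell, here and in all that follows.

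The second Atp8a1 probe, A_52_P534844, gave the same order. Its level was −4.50, −4.04, −4.60 and −3.96 on WT arrays, −5.56, −5.37, −6.90 and −5.10 on Het arrays and −2.54, −3.42, −3.08 and −3.18 on KO arrays, again without overlap of any pair of genotypes. The lowest of these, Het replicate 4, was not well above background. KO exceeded Het by 2.68 (SE 0.35, 6.40-fold), which was called, whereas KO minus WT (1.22, SE 0.35) and Het minus WT (−1.46, SE 0.35) were not. The third probe, A_51_P119636, was well above background on 3 KO arrays, 1 WT array and no Het array, and was not tested. It stood at −7.06 to −5.86 in KO, −8.43 to −6.58 in WT and −8.76 to −7.94 in Het cells. The WT values overlapped both other genotypes, and the values rest largely on signals at background.

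**Figure D1:**
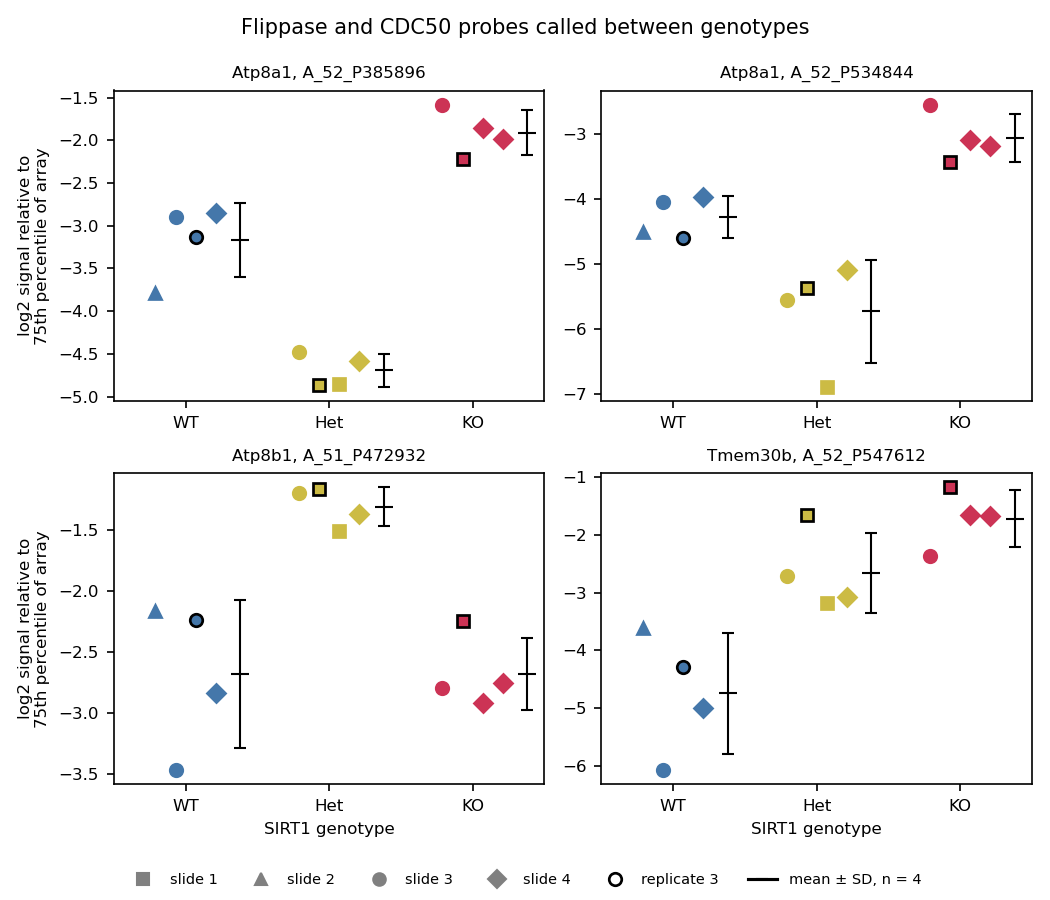
Level of the 4 member probes called in at least 1 comparison, as log2 signal relative to the 75th percentile of the array (y axis), by SIRT1 genotype (x axis). Each point is 1 array, its shape gives the slide, black outlines mark replicate 3, and bars are the mean ± SD of 4 arrays; for Atp8a1 at A_52_P385896 the 3 genotypes occupy separate ranges, from −4.87 to −4.48 in Het, −3.79 to −2.85 in WT and −2.22 to −1.58 in KO cells.

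The Atp8a1 difference between KO and Het was called at both tested probes whichever of the 12 arrays was left out, with a range of 2.68 to 2.89 at A_52_P385896 and 2.29 to 2.89 at A_52_P534844. At A_52_P385896 the KO to WT difference ranged from 1.05 to 1.36 and lost its call without KO replicate 2, 4 or 5, and with KO replicates 4 and 5 averaged (1.26). There the Het to WT difference ranged from −1.74 to −1.42 and lost its call only without Het replicate 4. With slide as a block these differences at A_52_P385896 were 1.17 for KO minus WT, −1.54 for Het minus WT and 2.70 for KO minus Het, all still called. Within slides 3 and 4, which hold all 3 genotypes, they were 1.43 and 0.93, −1.47 and −1.73, and 2.90 and 2.66. Under the normexp background correction the Het to WT difference of Atp8a1 was −0.96 at A_52_P385896 and −0.59 at A_52_P534844, neither called, and KO minus Het was 2.09 and 1.62, both still called.

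Atp8b1 separated Het cells from both other genotypes. ATP8B1 is the flippase of the canalicular membrane of hepatocytes that is deficient in familial intrahepatic cholestasis. Its brightest probe, A_51_P472932, stood at −2.17, −3.47, −2.24 and −2.84 on WT arrays, −1.20, −1.17, −1.51 and −1.37 on Het arrays and −2.80, −2.25, −2.92 and −2.76 on KO arrays. All 4 Het arrays lay above all 8 others, and WT and KO overlapped with equal means of −2.68. Het exceeded WT by 1.37 (SE 0.27, 2.59-fold), KO was below Het by −1.37 (SE 0.27, 2.59-fold), and KO minus WT was 0.00 (SE 0.27). Both Het differences were called, but with 1 array left out the call of Het minus WT held in 3 of 12 cases (1.11 to 1.54) and that of KO minus Het in 4 of 12 (−1.52 to −1.29). With slide as a block they were 1.45 and −1.31 and not called. Within slides 3 and 4 they were 1.66 and 1.47 for Het minus WT and −1.61 and −1.46 for KO minus Het, and KO minus Het was −0.92 within slide 1.

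The other 3 Atp8b1 probes (A_51_P494297, A_52_P70882 and A_51_P192329) were dim, on 3, 1 and 7 of the 12 arrays well above background, and were not tested. Their group means ran in the same order for Het and KO, with KO minus Het at −0.94, −0.82 and −1.06 respectively, but rest largely on signals at background.

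None of the remaining catalytic subunits was called in any comparison. Atp8b2, a flippase for phosphatidylcholine, was read by A_52_P591542 at 3.00 ± 0.36 on WT arrays, 3.38 ± 0.11 on Het arrays and 3.24 ± 0.28 on KO arrays (SD, n = 4), with overlap of all genotypes. Its second probe, A_51_P382524, differed by −0.64 (SE 0.39) between KO and WT, against 0.24 (SE 0.20) at the first, so the probes did not have the same sign.

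Atp11a and Atp11b encode flippases of phosphatidylserine and phosphatidylethanolamine, ATP11A mainly of the plasma membrane and ATP11B of endosomes. Atp11a at A_52_P373251 stood at 3.04, 2.71, 2.06 and 2.86 on WT arrays, 2.26, 1.78, 2.22 and 2.41 on Het arrays and 2.19, 2.45, 2.39 and 2.16 on KO arrays. Only WT replicate 3 lay among the Het and KO values, and the other 3 WT arrays lay above all of them. Its differences were −0.37 (SE 0.22) for KO minus WT and −0.50 (SE 0.22) for Het minus WT, not called; without WT replicate 3, Het minus WT was −0.70 and called. The second Atp11a probe, A_51_P504114, differed by −0.52 (SE 0.24) and −0.51 (SE 0.24) in these comparisons, with overlap through WT replicate 1.

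Atp11b was read in reverse by WT replicate 3. At A_52_P449259 the WT arrays stood at −4.70, −4.90, −2.71 and −4.53, the Het arrays at −4.46, −4.14, −4.05 and −3.87 and the KO arrays at −3.60, −4.25, −3.93 and −3.98. WT replicate 3 was the highest of all 12 arrays, and the other 3 WT arrays were the lowest. KO minus WT was 0.27 (SE 0.40) with that array and 0.77 without it, which was then called. At A_51_P146505 the same array stood at 1.08 against 0.02 to 0.14 on the other WT arrays. The remaining Atp11b probe, A_51_P141211, was well above background on 6 arrays and was not tested.

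Atp8a2, the flippase most closely related to ATP8A1 and known from neurons and photoreceptors, was near background throughout. Its probes A_52_P189410 and A_51_P305628 were well above background on 0 and 4 of the 12 arrays, and no fold is given.

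**Figure D2:**
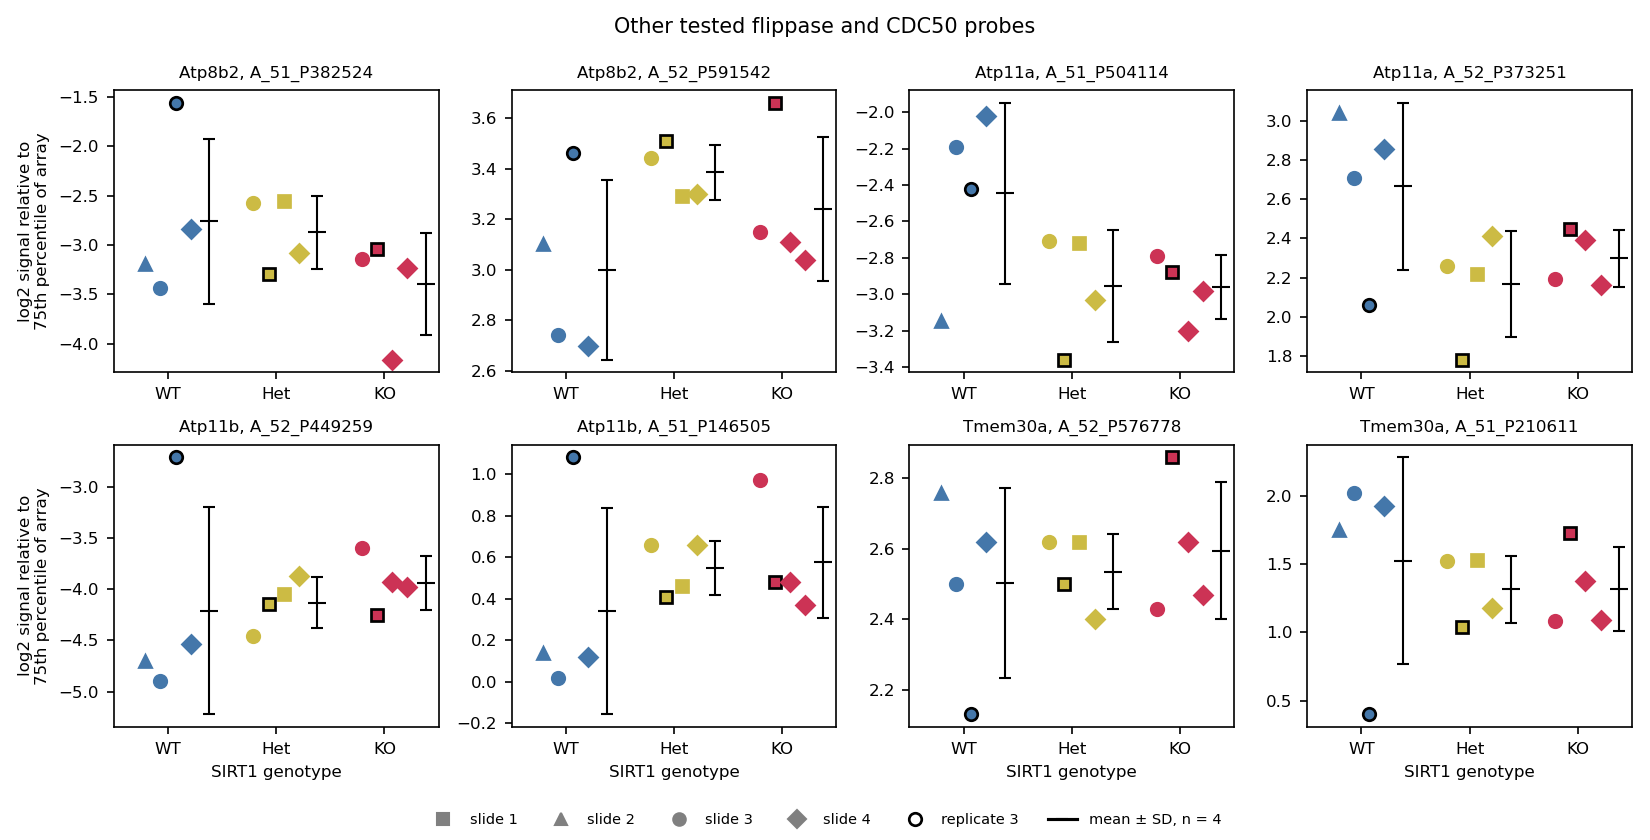
Level of the other 8 tested member probes, as log2 signal relative to the 75th percentile of the array (y axis), by SIRT1 genotype (x axis), with points, outlines and bars as in the plot of the called probes. WT replicate 3 stands apart from the other WT arrays for both Atp11b probes (−2.71 and 1.08) and for Tmem30a at A_51_P210611 (0.40).

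The CDC50 partners behaved differently from each other. Tmem30a, the partner that most flippases need, was read at A_52_P576778 at 2.51 ± 0.27 on WT arrays, 2.53 ± 0.11 on Het arrays and 2.60 ± 0.19 on KO arrays (SD, n = 4). Its differences there were 0.09 (SE 0.17) for KO minus WT, 0.03 (SE 0.17) for Het minus WT and 0.06 (SE 0.17) for KO minus Het. On unscaled signals the Het minus WT value was −0.21, so its sign depended on the scaling. KO minus Het was 0.32 and KO minus WT 0.11 on these signals, with the sign unchanged. At the second probe, A_51_P210611, WT replicate 3 stood at 0.40 against 1.75 to 2.02 on the other WT arrays, and KO minus WT was −0.20 (SE 0.33). That value was −0.72 and called when the arrays numbered 3 were left out of every genotype.

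Tmem30b, a CDC50 protein best known from epithelia, had the largest difference of any member. At A_52_P547612 it stood at −3.62, −6.07, −4.29 and −4.99 on WT arrays, −2.71, −1.66, −3.18 and −3.08 on Het arrays and −2.36, −1.18, −1.66 and −1.67 on KO arrays. All Het and KO arrays lay above all WT arrays, while KO replicate 2 lay below Het replicate 3. WT replicate 2, the lowest, was not well above background, so the differences from WT rest partly on a signal near background. KO exceeded WT by 3.02 (SE 0.50, 8.12-fold), which was called, Het exceeded WT by 2.08 (SE 0.50, 4.24-fold), and KO exceeded Het by 0.94 (SE 0.50), neither of which was called.

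With 1 array left out, the KO to WT difference of Tmem30b ranged from 2.58 to 3.40 and lost its call without WT replicate 5, KO replicate 4 or KO replicate 5. It was 3.19 and not called with slide as a block, 3.00 and not called with KO replicates 4 and 5 averaged, and 2.18 and called under normexp. Within slides 3 and 4 it was 2.82 and 3.32, and Het minus WT was 2.47 and 1.91. The other Tmem30b probe, A_52_P414368, was well above background on 3 KO arrays, 1 Het array and 1 WT array. It was not tested. Its group means differed by 0.74 in KO minus WT and 0.23 in Het minus WT, with overlap, and rest largely on signals at background. On slide 4 it stood at −4.96 in WT replicate 5, −5.02 in Het replicate 5, and −5.00 and −4.93 in KO replicates 4 and 5. The large difference of Tmem30b thus rests on A_52_P547612 alone.

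Markers of other cell types varied with genotype as well. Of 8 epithelial markers, 4 were well above background on all 12 arrays and none was below it on all. Their summed level was 1.49 to 4.18 on WT arrays, 0.24 to 1.81 on Het arrays and 1.71 to 2.52 on KO arrays, with Krt19 the brightest of them at 1.40 to 4.13 on WT arrays. Epcam, Cdh1 (2.56, SE 0.96, limma adjusted p = 0.213) and Krt18 (2.26, SE 0.94, limma adjusted p = 0.258) lay higher on every KO array than on any WT array, as Tmem30b did. The others tested overlapped between KO and WT: Krt8 (1.35, SE 0.61), Krt14 (0.30, SE 0.36), Krt5 (−0.30, SE 0.26) and Krt19 (−1.62, SE 0.71, limma adjusted p = 0.287). Epcam and Cdh1 were well above background on 8 of the 12 arrays and Krt8 on 9, so their differences rest partly on signals near background. Singly, Epcam was higher in KO than in WT cells (1.59, SE 0.34, limma adjusted p = 0.0470) and Krt8 in Het than in WT cells (3.36, SE 0.61, limma adjusted p = 0.0340), and no other of the 7 tested epithelial markers was called. Of 8 neuronal and glial markers, 3 were well above background on all arrays and none was called, with a summed level of 0.33 to 1.58 on WT arrays, −0.32 to 2.25 on Het arrays and 1.87 to 3.11 on KO arrays. Of 6 endothelial markers, Kdr and Tek were well above background on all 12 arrays and Pecam1 and Tie1 on none. Of 7 markers of macrophages and leukocytes, Cd68 was well above background on all 12 arrays, Lyz2 on 11, Csf1r on 10, and Ptprc and Mrc1 on none. No tested marker of these lists was called, with Kdr at −2.34 (SE 0.54, limma adjusted p = 0.0654) in Het minus WT. The part of RNA of any of these cell types in the member differences was not tested.

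**Figure D3:**
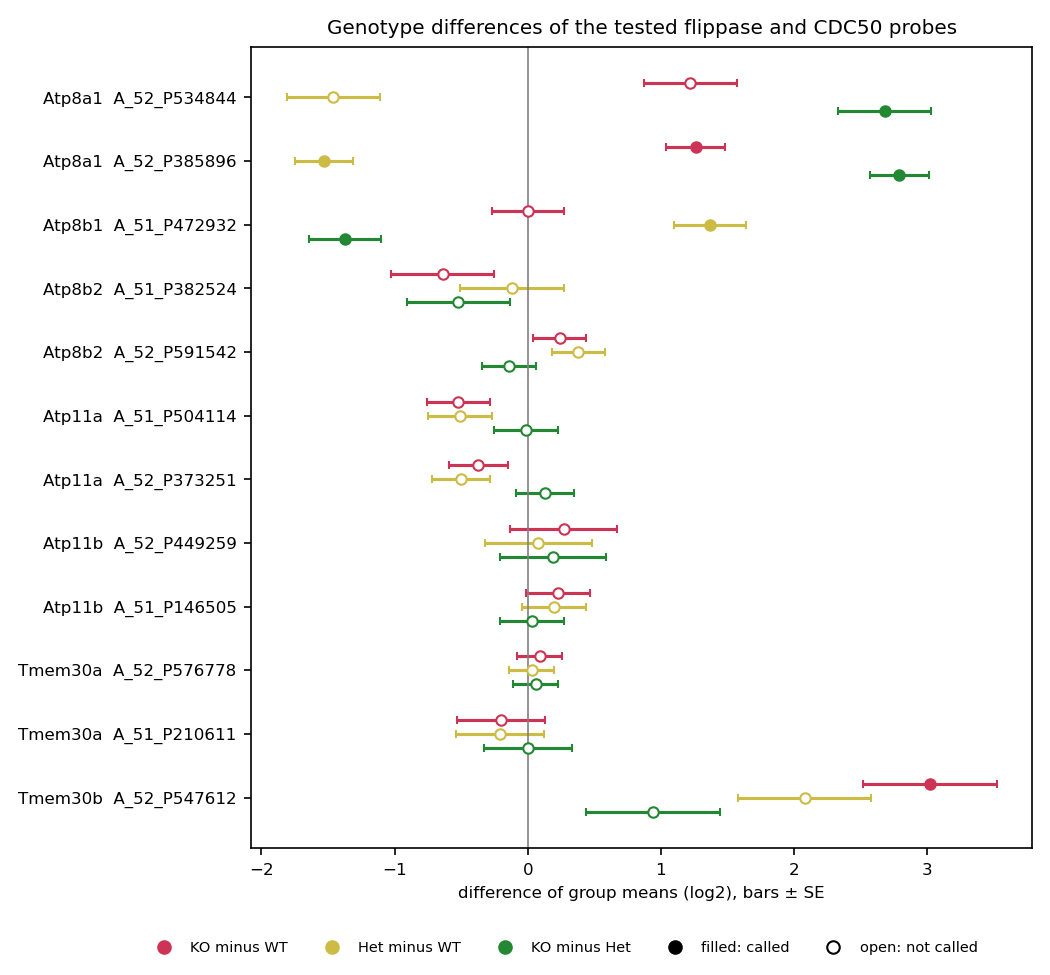
Difference of group means in log2 units (x axis) with its SE for the 12 tested member probes (y axis) in KO minus WT, Het minus WT and KO minus Het, which share groups of arrays; filled points were called. The values furthest from 0 are 3.02 for Tmem30b in KO minus WT and 2.79 for Atp8a1 in KO minus Het, and the probes of Atp8b2, Atp11a, Atp11b and Tmem30a lie between −0.64 and 0.38.

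Over the 12 tested member probes, KO minus WT had 2 called higher and 0 called lower, beside 0.766% and 0.73% of all tested probes. Het minus WT had 1 called higher and 1 called lower, beside 0.527% and 0.559%. KO minus Het had 2 called higher and 1 called lower, beside 0.523% and 0.293%. The genotypes did not overlap at 3, 4 and 3 of the 12 probes in these comparisons, beside 8.65%, 8.68% and 9.93% of all tested probes. The median difference of the members was 0.16, −0.04 and 0.05, and that of all tested probes 0.04, 0.02 and 0.00. On unscaled signals the median of all probes was 0.06, −0.21 and 0.25. As the members were chosen with these comparisons known, the counts describe the members and test nothing.

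From the promoter table of RefSeq (build GRCm38.p6), 7 promoters of 6 members were examined: Atp8a1, Atp8b2, Atp11a, Atp11b, Tmem30a and Tmem30b. No promoter of Atp8a2 or of the called member Atp8b1 was examined, so the motif counts of called members lack Atp8b1. The 250 bases before the start of Atp8a1 and Tmem30b are shown 5′ to 3′ because these genes had the largest differences. Atp8a1 lies at chr5:67847432-67847681 and Tmem30b at chr12:73546396-73546645, both on the minus strand. Capitals mark the GC box (GGGCGG, or CCGCCC on the other strand), known as a site of Sp-family factors, and the E-box CACCTG (or CAGGTG on the other strand), known as a site of Snail and ZEB repressors.
Atp8a1: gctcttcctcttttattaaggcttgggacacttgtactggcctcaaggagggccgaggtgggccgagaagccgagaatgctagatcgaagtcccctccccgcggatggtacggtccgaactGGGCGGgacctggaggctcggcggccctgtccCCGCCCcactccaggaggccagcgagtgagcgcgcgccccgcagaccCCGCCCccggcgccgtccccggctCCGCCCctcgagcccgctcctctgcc
Tmem30b: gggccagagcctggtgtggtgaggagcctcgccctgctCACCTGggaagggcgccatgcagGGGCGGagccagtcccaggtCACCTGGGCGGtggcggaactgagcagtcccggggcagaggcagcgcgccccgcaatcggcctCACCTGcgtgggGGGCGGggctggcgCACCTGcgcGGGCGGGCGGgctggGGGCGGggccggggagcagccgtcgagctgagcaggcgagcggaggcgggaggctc

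The Atp8a1 stretch holds 4 GC boxes and 0 of the E-box, and the Tmem30b stretch 6 GC boxes and 4 of the E-box, counting matches that overlap; the second E-box shares letters with a GC box. Of all 32851 promoters in the table, over the same 250 bases, 4.09% hold at least 4 GC boxes, 0.886% at least 6, 17.2% at least 1 E-box and 0.0426% (14 promoters) at least 4. These shares are not matched for base composition. G and C make up 70.4% of the Atp8a1 stretch and 77.2% of the Tmem30b stretch, against a median of 52.4% over all promoters. The other member stretches hold 62.8 to 74.4%. Members that were not called held GC boxes as well: Atp11a has 4, Atp11b has 6 with 1 E-box, and the Atp8b2 promoters have 3 with 1 E-box and 2 with 0. The Tmem30a stretch holds 0 of either. Both motifs were chosen with the results known, and a match is a description of letters and not a site. The CCAAT box (CCAAT) and the TATA box (TATAAA) were counted as well, on either strand. The Atp8a1 and Tmem30b stretches hold 0 of each, and among the members examined only 1 Atp8b2 promoter had a match, 1 CCAAT box.

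The other genes of phospholipid asymmetry were counted in 6 lists of 90 genes in all, of which 84 are on the array and 68 were tested. None was called by limma in KO minus WT, Het minus WT or KO minus Het. An unadjusted limma p under 0.05 was met by 8, 11 and 7 of the 68, beside 4160, 4080 and 2882 of all 25602 probes. Leaving out the single array WT replicate 3 raised the called counts to 4 and 3 in the comparisons with WT. Over all 25904 probes tested there, 2398 and 2027 were called. Leaving out the arrays numbered 3 of every genotype raised the list counts to 11, 6 and 1, beside 4133, 2739 and 2097 of all 26805 probes. The median over the 68 genes was −0.01, 0.02 and −0.05. For each list the gene with the largest difference is named.

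Among the other P4-ATPases and the CDC50 gene Tmem30c, 7 of 10 were tested and 4 were higher and 3 lower in KO than in WT cells, none of them called. The largest differences were those of Atp10d, at −0.36 (SE 0.33) in KO minus WT and −0.60 (SE 0.33) in Het minus WT, and of Atp8b5 (4930417M19Rik on the array), at −0.48 (SE 0.23) in KO minus Het. Tmem30c, Atp8b4 and Atp10b (9030605H24Rik on the array) were not tested. Without the arrays numbered 3, Atp10d was lower in KO and in Het than in WT cells (−0.87, limma adjusted p = 0.0166, and −0.70, limma adjusted p = 0.0492).

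Among scramblases, which move phospholipids across the bilayer in either direction, 11 of 23 were tested. Plscr2 differed by 1.84 (SE 0.81, limma adjusted p = 0.285) in KO minus WT and 1.72 (SE 0.81, limma adjusted p = 0.325) in Het minus WT, and its SD was 1.89 in Het and 1.15 in KO cells against 0.27 in WT cells. Without the arrays numbered 3 these values were 2.37 and 2.63 and were called (limma adjusted p = 0.000164 and 0.000119). In KO minus Het the largest difference was that of Plscr4, at −0.46 (SE 0.32). Of the ABC lipid exporters, which move lipids outward, 8 of 11 were tested; Abca1, which loads cholesterol and phospholipid onto apolipoprotein A-I, led in each comparison, with 0.98, −0.68 and 1.66 (SE 0.52 for each; limma adjusted p = 0.392, 0.560 and 0.230). Without the arrays numbered 3, Abca1 was called in Het minus WT (−1.5, limma adjusted p = 0.0483) and in KO minus Het (1.91, limma adjusted p = 0.0206). Its order over all arrays, KO above WT above Het, was that of Atp8a1, but only KO and Het did not overlap.

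Of the genes of phospholipid head group synthesis, 15 of 16 were tested. Etnk2, an ethanolamine kinase, differed by 1.18 (SE 0.59) in KO minus WT and 1.54 (SE 0.59) in Het minus WT, and Cept1, which makes phosphatidylcholine and phosphatidylethanolamine, by −0.37 (SE 0.17) in KO minus Het. Of the proteins that recognise exposed phosphatidylserine, 13 of 16 were tested. Gas6, a bridge between phosphatidylserine and the TAM receptors, stood at 2.83 ± 1.18 on WT arrays, 4.69 ± 0.33 on Het arrays and 3.39 ± 0.10 on KO arrays, with differences of 1.87 (SE 0.46, limma adjusted p = 0.0804) in Het minus WT and −1.30 (SE 0.46, limma adjusted p = 0.290) in KO minus Het. It was called in Het minus WT without WT replicate 3 (2.16, limma adjusted p = 0.0203). In KO minus WT the largest was Pros1, a second TAM ligand, at −0.82 (SE 0.26, limma adjusted p = 0.153). Of the endosome and trans-Golgi sorting factors, 14 of 14 were tested, and the largest were Dop1b (Dopey2 on the array) at 0.62 (SE 0.22) in KO minus WT, Dop1a (Dopey1) at −0.62 (SE 0.17) in Het minus WT and Rab11a at −0.32 (SE 0.29) in KO minus Het.

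**Figure D4:**
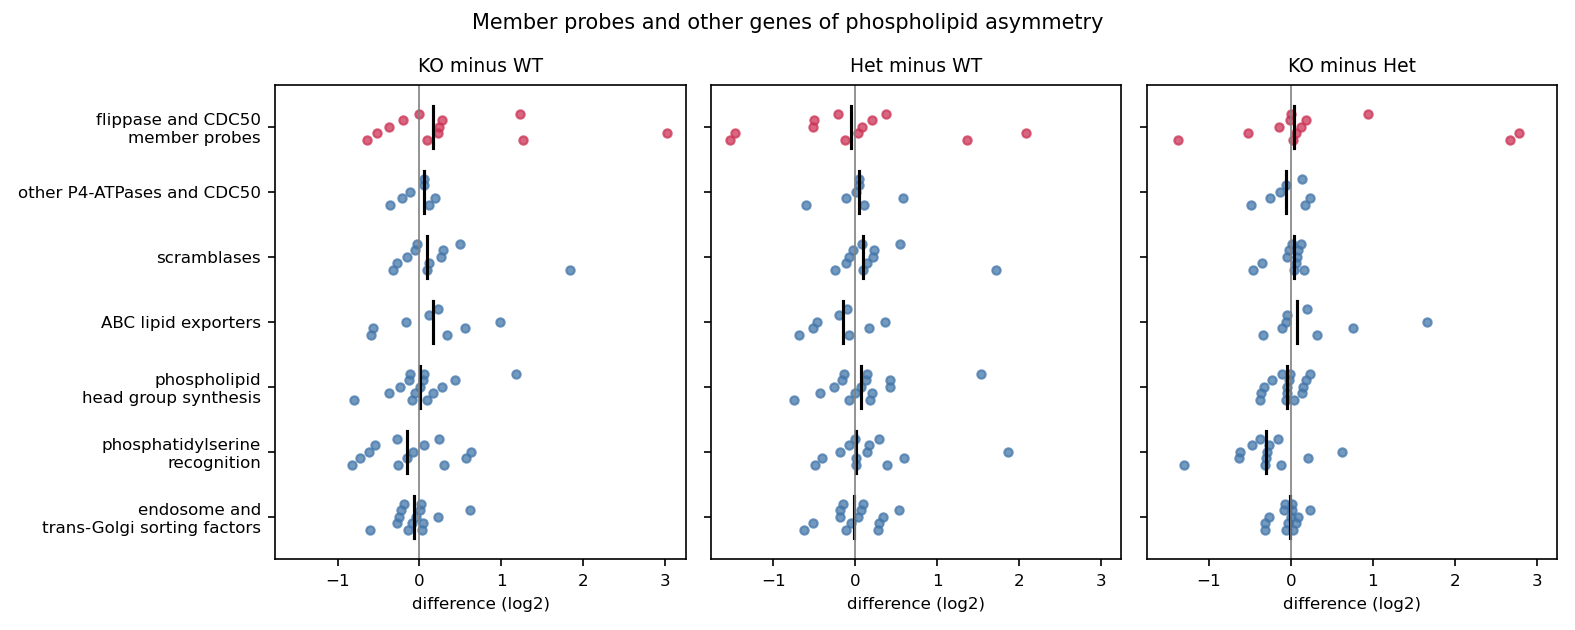
Difference in log2 units (x axis) of each tested member probe (red) and of each tested gene of the 6 lists (blue, 1 probe per gene), by list (y axis), in the 3 comparisons; black bars are medians and vertical scatter within a list has no meaning. None of the 68 blue points was called, and their medians by list lie between −0.30 and 0.17.

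The genes whose level over the 12 arrays was most like a member were found by the root mean square (RMS) difference of levels, each centred on its own mean, among 13826 named genes. For Atp8a1 (A_52_P385896; SD over the 12 arrays 1.22) the nearest were Bmp4, a morphogen, and the Wnt receptor Fzd6, with an RMS difference of 0.52 each, and Pcdhga9 with 0.54, against a median of 1.24 over all candidates. Bmp4 stood at 0.49 to 1.88 on WT arrays, −1.46 to −0.24 on Het arrays and 1.51 to 2.14 on KO arrays, and so shared the low Het level but overlapped between WT and KO. Fzd6 stood at 0.32 to 1.18, −0.28 to −0.11 and 1.34 to 1.61 in the same order of genotypes, with KO above WT above Het and no overlap, as for Atp8a1. Pcdhga9 stood at −7.00 to −5.99, −7.10 to −6.83 and −5.73 to −4.24, and overlapped between WT and Het. It was near background there. In WT replicate 2 (−6.19) and Het replicate 2 (−6.83) it lay under the lowest level well above background, −5.49 and −5.69. For Tmem30b (SD 1.49) they were Piezo2 (9430028L06Rik on the array, 0.66), Dhrs9 (0.69) and Gper1 (Gpr30, 0.71), against a median of 1.47. For Atp8b1 (SD 0.77) they were Emp2 (0.31), Il4ra (0.33) and Olfr149 (0.34), against a median of 0.82. The arrays share slides and genotypes, so these values are descriptions of 12 arrays.

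**Figure D5:**
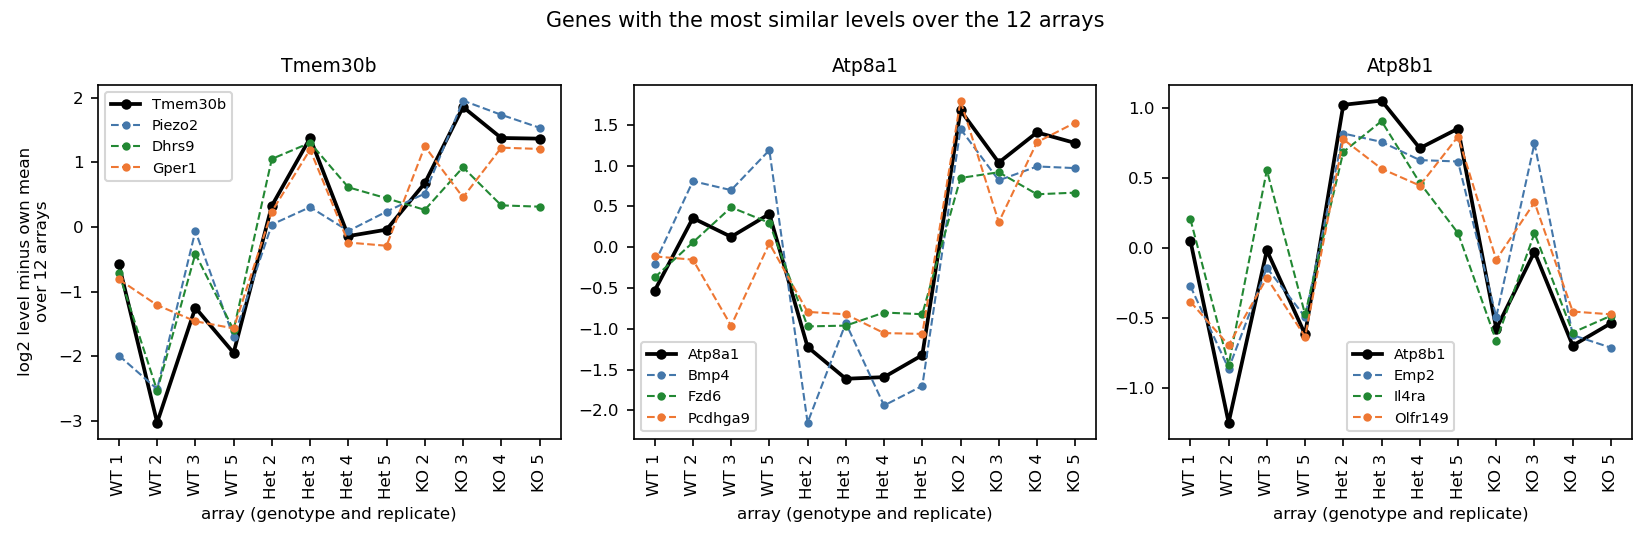
Level minus its own mean over the 12 arrays, in log2 units (y axis), on each array (x axis), for Tmem30b, Atp8a1 and Atp8b1 (black) and the 3 genes most like each (colours). Lines join arrays of different genotypes only to guide the eye; the Atp8a1 panel shows Bmp4 and Fzd6 at an RMS difference of 0.52 from Atp8a1.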

How the data were processed

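Per the file headers and the submitters' processing notes, the arrays were extracted by the authors with Agilent Feature Extraction 9.5, and the deposited spot tables hold, per spot, a background-subtracted processed intensity (linear, not scaled between arrays). The deposited series table holds the same intensity values, with a largest relative difference of 0. Here control and outlier spots were left out, spots of a probe were averaged, and the 75th percentile of the array was subtracted after log2. Comparisons used limma 3.58.1 (R 4.3.3) in 1 fit of 12 arrays with group means and Benjamini-Hochberg adjustment over 25602 probes; the step was tested on simulated data. The members and gene lists were chosen with earlier results of these data known. Named genes are all member probes, list genes called or else the largest difference per list and comparison, and the 3 genes most like each of the 3 most variable members. Of 41174 probes, 22951 were named by accession, 6659 by symbol and 3109 by synonym in a GRCm38.p6 table, and 8455 keep the array's name. Coordinates of probes are those of the files, on mm7. Promoters come from RefSeq and were read with Python 3.11.15 and pandas 2.3.3, and figures were drawn with matplotlib 3.10.9. The number of arrays limits the precision.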

Additional observations from a re-analysis of the deposited data

Results flagged for a closer look

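Of 34 groups of 4 arrays examined for the tested member probes, 4 held an array far from the others by Dixon's criterion, which chance meets in about 1 of 20 groups. WT replicate 3 was that array in 3 of them. Atp11b at A_52_P449259 stood at −2.71 on it against −4.90 to −4.53 on the other WT arrays. Atp11b at A_51_P146505 stood at 1.08 against 0.02 to 0.14. Tmem30a at A_51_P210611 stood at 0.40 against 1.75 to 2.02. For Atp8b2 at A_51_P382524, KO replicate 4 stood at −4.16 against −3.23 to −3.04 on the other KO arrays. WT replicate 3 is also the array whose Xist and Y-linked levels went against its label, and the part of this in the member levels was not tested.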

How the results depend on the processing

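For the 36 member differences, 999 values under alternatives were computed, of which 966 moved by less than the spread between arrays, 33 by more, and none that was called changed sign. The counts of called probes were less stable, and the cause was not tested. Some of the alternatives also used fewer arrays or probes. In KO minus WT, Het minus WT and KO minus Het, 383, 278 and 209 probes were called (196, 135 and 134 of them higher; 4160, 4080 and 2882 at an unadjusted p under 0.05). The counts were 161, 58 and 88 with normexp, 119, 61 and 87 with no filter, 72, 58 and 107 with slide as a block, 73, 84 and 58 with KO replicates 4 and 5 averaged, 4133, 2739 and 2097 without the arrays numbered 3, and 9684, 4416 and 7536 with array weights. Without scaling they were 153 and 162 in the comparisons with WT, and the split of Het minus WT was 28 higher and 134 lower against 135 and 143, and that of KO minus Het 171 and 38 against 134 and 75. Probes well above background on all 12 arrays gave 121 in KO minus Het. With 1 array left out the counts ran from 68 (without KO replicate 4) to 2398 (without WT replicate 3), from 40 (without Het replicate 4) to 2027 (without WT replicate 3), and from 49 (without KO replicate 4) to 527 (without Het replicate 3). An alternative chosen after seeing the data, WT replicate 3 left out with slide as a block, gave 1351, 916 and 374. Of the 68 list genes, none called in the main setting, 11, 6 and 1 were called without the arrays numbered 3, 28, 13 and 14 with array weights, and 2, 3 and 1 without WT replicate 3 and with slide as a block; with 1 array left out, 0 to 4 were called in KO minus WT and 0 to 3 in Het minus WT.

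With the replicate number as a block, 146, 110 and 218 probes were called, and 1 list gene, Etnk2, in each comparison with WT (1.77, limma adjusted p = 0.0384, in KO minus WT and 2.13, limma adjusted p = 0.0278, in Het minus WT). A replicate block over numbers 2, 3 and 5 gave 12, 6 and 13. The correlation of deviations between same-numbered arrays ran from −0.0927 to 0.399 over 10 pairs, and was not over 0.1 in every pair, so the number was not taken to pair the arrays. The arrays numbered 3 were the exception: their pairs stood at 0.399 (WT and Het), 0.349 (Het and KO) and 0.204 (WT and KO), and they were the 3 of 12 arrays that correlated best with their own number in another genotype.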
